A study of Mus musculus with 2 samples.

Results

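The genes described here are 9 regulators of the primitive streak and of the tailbud progenitors that later replace it: Gbx2, Evx1, Evx2, Mixl1, Gsc, Nkx1-2, Sp5, Sp8 and Greb1. They were chosen as named genes, with earlier results of these data known, and matched to the probes by symbol or accession. Each had 1 probe with 1 spot per array. All 9 were among 25860 gene features detected, of 32762 with a probe. Of the detected features, 16351 matched a RefSeq gene and 9509 carry only the name in the array files, which for 3278 is the probe ID. All 25860 are counted as genes below. Detected means well above background, by the scanner software's flag, in the same genotype on both arrays.

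Posterior tissue of mouse embryos of 13 somites was compared between Cdx2+/-Cdx4-/- mutants, heterozygous for Cdx2 and without Cdx4, and wildtype embryos. For each genotype the tissue of 7 embryos was pooled, so a value is that of a pool and no spread between embryos was measured. Both pools were hybridised together on each of 2 Agilent arrays, with the dyes exchanged: on replicate 1 the mutant RNA was labelled with Cy5, on replicate 2 with Cy3. With 1 pool per genotype there is no test between genotypes, and each error below is an SD over the 2 arrays, a technical spread. In pooled tissue, fewer cells of a type and less RNA per cell cannot be told apart.

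The primitive streak, and after it the tailbud, holds the progenitors that lengthen the body axis. Wnt and FGF signals keep these cells in place, and the caudal-type homeodomain factors of the Cdx family act downstream of Wnt to sustain axial growth in the mouse. Of the genes described here, Gbx2, Evx1, Evx2, Mixl1, Gsc and Nkx1-2 encode homeodomain proteins, Sp5 and Sp8 encode zinc finger proteins of the Sp family, and Greb1 encodes a cofactor first known from oestrogen-treated human breast cancer cells.

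Among the 9 genes, 1 rose in the mutant pool, 1 fell and 7 did not pass the size rule. Gbx2 was 1.76-fold higher and Greb1 was 1.73-fold lower, on average over the arrays. The rule asks for a change of at least 1.5-fold in the same direction on each array. Over all detected genes 114 passed it, or 0.441%, with 54 higher (0.209%) and 60 lower (0.232%). Of the features matched to a RefSeq gene, 104 passed, or 0.636%. The median log2 ratio of mutant over wildtype was 0.02 for the 9 genes and 0.00 for all detected genes.

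**Figure D1:**
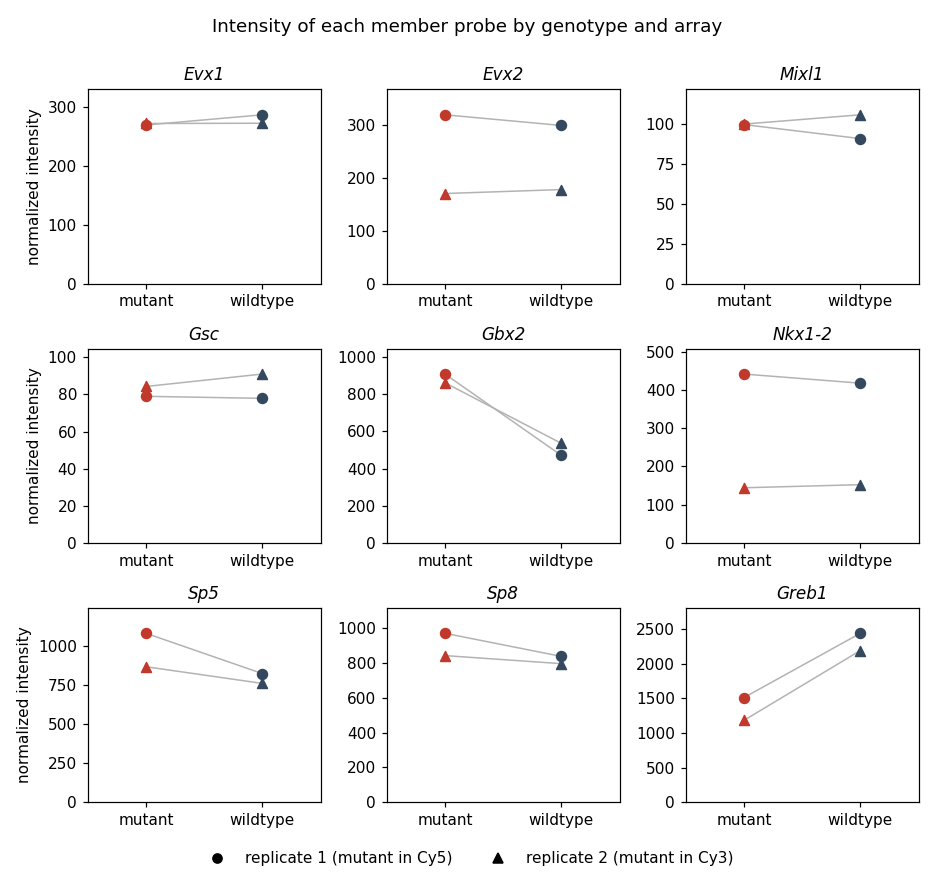
Normalized intensity (vertical axis, linear, from 0) of the probe of each of the 9 genes in the mutant pool (red, left) and the wildtype pool (dark, right). Circles are replicate 1, triangles are replicate 2, and a line joins the pools on 1 array. The lines slope the same way on both arrays for Gbx2, Greb1, Sp5 and Sp8 and are nearly flat for Evx1, while Evx2 and Nkx1-2 differ more between arrays than between genotypes.

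The array checks bear on all of these values. The Cdx4 probe had normalized intensities of 131 and 174 in the mutant pool on replicates 1 and 2, against 799 and 944 in the wildtype pool, a log2 ratio of -2.52 ± 0.12. The Cdx2 probe gave -0.05 ± 0.09, and its position relative to the altered allele is unknown here. Of all gene spots, 77.4% to 82.5% were well above background, depending on array and pool. The SD between arrays of the log2 ratio, pooled over all detected genes, was 0.19. The ratios of the 2 arrays had the same sign in 47.7% of detected genes, against 5 of the 9 genes described here.

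Gbx2 encodes a homeodomain repressor best known for placing the boundary between midbrain and hindbrain, and it is also expressed in the caudal part of the gastrulating mouse embryo. Its probe lies at chr1:89841383-89841442 in the files' coordinates, whose build the files do not name. The normalized intensity of Gbx2 was 908 and 861 in the mutant pool on replicates 1 and 2, against 471 and 536 in the wildtype pool. On each array the mutant value lay above the wildtype value. The arrays gave log2 ratios of 0.95 and 0.69, with a mean of 0.82 ± 0.19. At this brightness the SD between arrays, pooled over 1125 detected genes within 0.25 log2 units, was 0.14. Only 37 of the 25860 detected genes had a higher mean ratio. The dye component, which is the part of the Cy5 over Cy3 ratio that did not turn with the swap, was 0.13 for Gbx2. It comes from the same difference between the arrays as the SD. With 1 array per dye order, a dye effect and array noise cannot be told apart in it. For any gene with the same sign on both arrays it is smaller than the mean ratio by construction.

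Greb1 was the gene that fell. It is a target and cofactor of the oestrogen receptor in human cells, and it is expressed in the tailbud of the mouse embryo. Its probe lies at chr12:16871072-16871131 in the same coordinates. In the mutant pool its normalized intensity was 1513 and 1183, against 2443 and 2193 in the wildtype pool. On each array the mutant value lay below the wildtype value. The arrays gave log2 ratios of -0.69 and -0.89, with a mean of -0.79 ± 0.14. Genes of like brightness, 592 in number, had an SD between arrays of 0.16. Only 25 detected genes had a lower mean ratio. The dye component of Greb1 was 0.10.

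**Figure D2:**
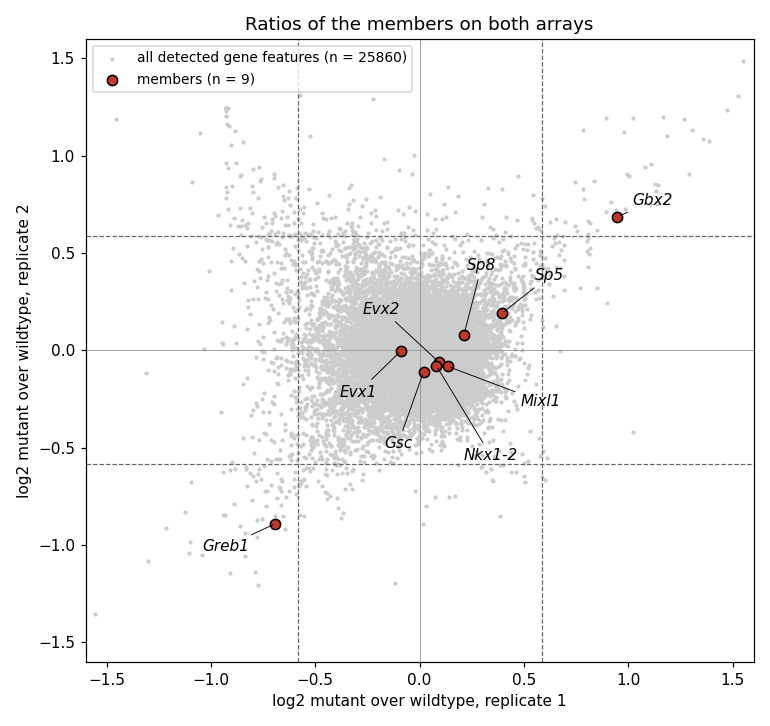
Log2 ratio of mutant over wildtype on replicate 1 (horizontal axis) and replicate 2 (vertical axis) for the 9 genes (red, named) and all 25860 detected gene features (grey, those beyond 1.6 on either axis not drawn). Dashed lines mark 1.5-fold. Gbx2 lies in the upper right and Greb1 in the lower left, past the lines on both axes, and the other 7 lie inside them.

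Because Gbx2 and Greb1 carry the differences, their promoters are shown, as the 250 bases before the start of the gene in RefSeq on build GRCm38.p6, minus strand, 5′ to 3′. The letters searched, on both strands, were TTTATNG or CNATAAA, which caudal-type factors prefer, TCAAAG or CTTTGA, the core read by the TCF and LEF factors of Wnt signalling, and the GC box GGGCGG or CCGCCC, which Sp proteins read. Capitals mark a match. The Gbx2 window is chr1:89931177-89931426 and the Greb1 window is chr12:16800887-16801136.
Gbx2: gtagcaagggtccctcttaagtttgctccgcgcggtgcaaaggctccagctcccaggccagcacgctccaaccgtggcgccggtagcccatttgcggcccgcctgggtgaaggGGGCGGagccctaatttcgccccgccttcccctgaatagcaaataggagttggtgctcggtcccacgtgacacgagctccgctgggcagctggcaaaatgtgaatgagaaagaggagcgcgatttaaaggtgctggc
Greb1: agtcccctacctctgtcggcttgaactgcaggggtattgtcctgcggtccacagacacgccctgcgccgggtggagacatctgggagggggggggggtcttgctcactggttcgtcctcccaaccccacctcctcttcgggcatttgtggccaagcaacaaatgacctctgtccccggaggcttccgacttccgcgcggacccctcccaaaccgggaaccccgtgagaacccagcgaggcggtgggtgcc
The Gbx2 window holds 1 GC box, whose first base is 137 bases before the start. The Greb1 window holds none of the 3 motifs, and neither does the window of its other start in the table. Of 32851 promoter windows of this length, 9.81% held the first motif, 13.8% the second and 32.7% the third. No match is evidence of a bound site, and its absence speaks only of these letters in this window.

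Median centring of each array, in place of loess, ended both calls. Gbx2 then had 1.38 on replicate 1 and 0.11 on replicate 2, and Greb1 had -0.20 and -1.54. The mean over the arrays, in which a dye effect cancels, was 0.74 for Gbx2 and -0.87 for Greb1. With median centring 27 genes were higher and 16 lower in all, so that 62.8% of calls were higher, against 47.4% with loess.

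Sp5 and Sp8 came next among the genes that were higher in the mutant pool, without passing the rule. Sp5 is a direct target of Wnt signalling, and Sp5 and Sp8 act together in mouse tailbud progenitors downstream of Wnt3a. Sp8 is also needed for limb outgrowth. The normalized intensity of Sp5 was 1080 and 866 in the mutant pool on replicates 1 and 2, against 822 and 759 in the wildtype pool. The mutant value lay above the wildtype value on each array. Its log2 ratio was 0.39 and 0.19, a mean of 0.29 ± 0.14, or 1.22-fold. The mean is 2.01 times the SD between arrays of genes of like brightness. Among all detected genes, 95.9% had a mean ratio closer to 0 than that of Sp5, and 393 had a higher one.

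Sp8 had normalized intensities of 970 and 842 in the mutant pool, against 837 and 796 in the wildtype pool. On each array the mutant value was again above the wildtype value, by little on replicate 2. Ratios of the same sign on both arrays were found in 47.7% of detected genes. Its log2 ratio was 0.21 and 0.08, a mean of 0.15 ± 0.09, which is 1.02 times the SD between arrays at its brightness. With median centring both genes changed sign on replicate 2, to -0.40 for Sp5 and -0.51 for Sp8, while their means were 0.22 and 0.08. The Sp5 probe lies at chr2:70416267-70416326 and the Sp8 probe at chr12:113888703-113888762 in the files' coordinates. The Sp5 promoter, at chr2:70474673-70474922 on the plus strand of GRCm38.p6, is shown because it holds 2 TCF and LEF cores, in capitals, and Sp5 is a known Wnt target.
Sp5: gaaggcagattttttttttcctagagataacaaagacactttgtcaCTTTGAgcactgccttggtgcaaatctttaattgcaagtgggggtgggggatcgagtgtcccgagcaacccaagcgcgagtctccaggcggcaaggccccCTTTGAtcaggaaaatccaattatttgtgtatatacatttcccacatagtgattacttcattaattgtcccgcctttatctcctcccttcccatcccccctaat
The cores begin 204 and 104 bases before the start. Of the 11 promoter windows of the 8 genes that matched the RefSeq table, 2 held this core, against 13.8% of all windows. They were that of Sp5 and 1 of the 3 windows of Sp8.

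Evx1 and Evx2 encode even-skipped homeodomain repressors. In the mouse Evx1 marks the posterior primitive streak and later spinal interneurons, and Evx2 lies beside Hoxd13 and is expressed in the tail, genital bud and digits. Evx1 had normalized intensities of 269 and 272 in the mutant pool, against 286 and 272 in the wildtype pool, so the genotypes were close on both arrays. Its log2 ratios of -0.09 and 0.00 averaged -0.05 ± 0.06. Evx2 had 320 and 171 in the mutant pool, against 300.0 and 178 in the wildtype pool. The mutant value was the higher on replicate 1 and the lower on replicate 2. Its mean log2 ratio was 0.02 ± 0.11. The Evx1 probe lies at chr6:52265093-52265152 and the Evx2 probe at chr2:74553232-74553291.

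The promoters of this pair are shown because each holds 1 match to the letters that caudal-type factors prefer, and their own ratios were near 0. The Evx1 window is chr6:52313248-52313497 on the plus strand, and the Evx2 window is chr2:74659558-74659807 on the minus strand.
Evx1: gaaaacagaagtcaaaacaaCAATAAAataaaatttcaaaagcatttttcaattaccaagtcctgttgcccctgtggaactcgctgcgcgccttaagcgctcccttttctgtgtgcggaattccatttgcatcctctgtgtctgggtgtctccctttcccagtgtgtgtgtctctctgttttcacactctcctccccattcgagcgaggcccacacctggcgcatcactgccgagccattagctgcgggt
Evx2: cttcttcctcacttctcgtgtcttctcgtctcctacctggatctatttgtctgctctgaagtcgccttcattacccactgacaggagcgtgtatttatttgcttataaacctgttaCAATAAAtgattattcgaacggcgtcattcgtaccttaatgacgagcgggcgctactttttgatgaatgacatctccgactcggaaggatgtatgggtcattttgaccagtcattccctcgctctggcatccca
The match begins 230 bases before the start of Evx1 and 134 bases before that of Evx2. The same motif was in 4 of the 11 windows, the rest being windows of Sp8, against 9.81% of all promoter windows. A link between matches and ratios was not tested. No match of 1 motif overlapped a match of another in any of the 11.

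The Evx genes lie at the ends of Hox clusters, so their neighbours were read beside them. Hoxa13, next to Evx1, had a log2 ratio of -0.10 ± 0.01. Hoxd13, next to Evx2, had -0.81 on replicate 1 and -0.33 on replicate 2, a mean of -0.57 ± 0.34, while Evx2 itself had 0.09 and -0.06. Of the 5 detected Hox genes from the Evx ends of these clusters, Hoxa10 fell (-1.05 ± 0.01), Hoxd11 fell (-0.69 ± 0.04) and 3 did not pass. Their median was -0.57, and all 5 lay below 0 on both arrays. Hoxa13 and Hoxa11 were dim, however, at normalized intensities from 70.2 to 89.8 over both pools, near those of Gsc below. The mutant Hoxd11 values, 75.2 and 90.5, were also that dim. The signs of such dim probes carry little weight. The difference between the Evx and Hox genes was not tested. Hoxa10 no longer passed after median centring, nor Hoxd11 when background was not subtracted.

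Nearest neighbours were also read for the other genes, as the closest protein-coding gene with a detected probe on each side. None of the 18 neighbours passed the rule, against 0.441% of all detected genes, and their ratios ran from -0.57 at Hoxd13 to 0.19 at Itgb8, which lies beside Sp8. On either side of Gbx2, Agap1 had -0.34 ± 0.21 and Asb18 had -0.02 ± 0.11. On either side of Greb1, Ntsr2 had -0.38 ± 0.59 and E2f6 had 0.02 ± 0.04. The Ntsr2 value came from replicate 2, with -0.80, against 0.03 on replicate 1.

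Nkx1-2 encodes a homeodomain factor that marks the caudal epiblast beside the streak, where neural and mesodermal progenitors arise. Its normalized intensity was 441 and 144 in the mutant pool on replicates 1 and 2, against 417 and 152 in the wildtype pool. The arrays differed far more than the genotypes. Its log2 ratio was 0.08 and -0.08, a mean of 0.00 ± 0.11. Both pools were together 2.90-fold brighter on replicate 1, a gap reached by 26 of the 25860 detected genes, Nkx1-2 included, or 0.101%. The part of this gap in the ratio was not tested. The Nkx1-2 probe lies at chr7:120219086-120219145.

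Mixl1 and Gsc are regulators of mesendoderm. Mixl1, a paired-type homeodomain factor of the primitive streak, is needed for definitive endoderm in the mouse, and Gsc marks the anterior streak and the organizer. Both belong to an earlier stage of gastrulation, and both probes were dim here. The raw Mixl1 signal reached at most 1.55 times the median of the negative control spots in the mutant pool and 1.63 times in the wildtype pool. Its normalized intensity was 99.6 and 99.9 in the mutant pool, against 90.8 and 106 in the wildtype pool, and the log2 ratio was 0.13 and -0.08, a mean of 0.03 ± 0.15. The mutant value was above the wildtype value on replicate 1 and below it on replicate 2.

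Gsc was dimmer still, at 1.13 to 1.28 times the negative controls in the mutant pool and 1.14 to 1.41 times in the wildtype pool. It was well above background in the mutant pool on 1 of the 2 arrays, and in the wildtype pool on both. Its normalized intensity was 79.0 and 84.3 in the mutant pool, against 77.9 and 91.0 in the wildtype pool. The mutant value was thus higher on replicate 1 and lower on replicate 2. The log2 ratio was 0.02 and -0.11, a mean of -0.05 ± 0.09. With the scanner software's own ratio Gsc had -0.48, the only one of the 9 genes to move by more than its spread under an alternative that used both arrays. The offset added to each signal shrinks ratios this close to background. With an offset of 16 in place of 50 the ratios were 0.04 for Mixl1 and -0.08 for Gsc. The Mixl1 probe lies at chr1:180767467-180767526 and the Gsc probe at chr12:99185781-99185840.

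Apart from Gbx2, Greb1, Sp5 and Sp8, the 5 other genes thus had mean log2 ratios between -0.05 and 0.03. Over all detected genes the lower and upper quartiles of the ratio were -0.07 and 0.06, so these 5 lay between them.

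**Figure D3:**
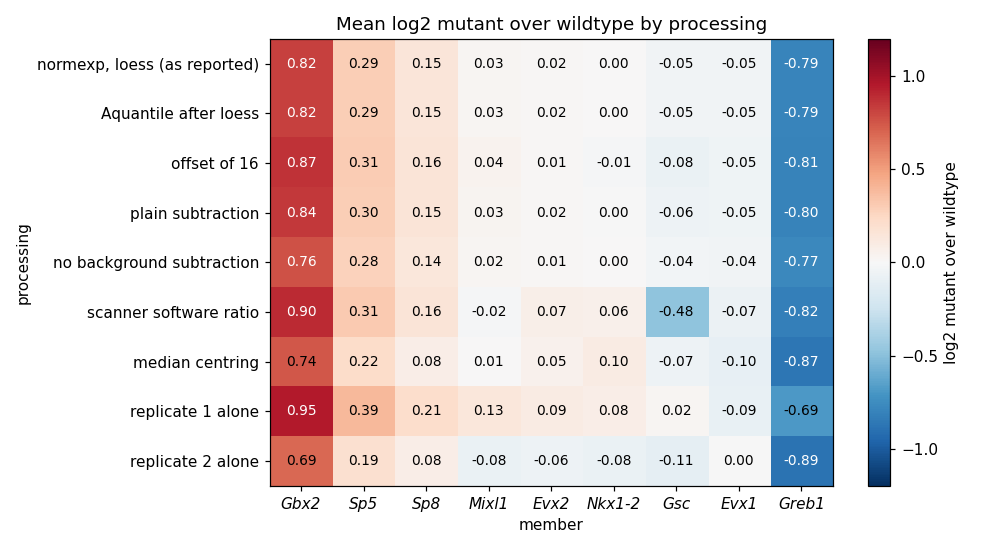
Log2 ratio of mutant over wildtype for the 9 genes (columns) under 7 ways of processing both arrays and for each array alone (rows); colour and number give the same value. Gbx2 stayed between 0.69 and 0.95 and Greb1 between -0.89 and -0.69, and Gsc shifted to -0.48 with the scanner software's ratio.

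The related genes were read in lists chosen with earlier results of these data known. Of 18 detected tailbud and caudal epiblast genes outside the 9, Fst, Sox2 and Mesp1 rose and Cyp26a1 fell. The 14 others missed the rule, and the list median was a log2 ratio of 0.03. Fst, which encodes an antagonist of activin, had 1.23 ± 0.06, and Cyp26a1, whose enzyme clears retinoic acid, had -1.04 ± 0.08. Sox2 and Mesp1 no longer passed after median centring, nor did Mesp1 when background was not subtracted. Wnt3a, the ligand upstream of Sp5 and Sp8, had -0.46 ± 0.05 and Wnt8a had 0.45 ± 0.00, neither past the rule. The signs of these ligand genes were opposite on both arrays. The Wnt8a probe was dim, however, at 126 and 118 in the mutant pool and 91.6 and 86.4 in the wildtype pool. Its wildtype values were near those of Gsc, so its ratio carries little weight.

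Among 15 detected feedback and target genes of Wnt signalling, only Rnf43 passed, and it fell; the list median was 0.06. Rnf43 encodes a ubiquitin ligase that removes Wnt receptors, and it had -0.73 ± 0.02, though it did not pass after median centring. Sp5 lay near Lef1 (0.29 ± 0.08), a nuclear partner of beta-catenin. Axin2, a feedback inhibitor, had -0.07 ± 0.10, but its normalized intensities of 69.2 to 76.2 were below those of Gsc. A ratio near 0 at that level says little about Axin2. Nkd1, another feedback inhibitor, had 0.58 ± 0.12 and the ligand gene Wnt5a had -0.51 ± 0.11. The ratios of these Wnt genes had both signs.

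Of 10 detected organizer and mesendoderm genes, Cer1 rose (1.78 ± 0.09) and the other 9 missed the rule. Their list median was 0.05. Cer1 encodes a secreted antagonist of Nodal and BMP. Its probe was dim in the wildtype pool, at 77.7 and 69.7, and the size of its ratio varied with the processing. The ratio was 1.34 without background subtraction and 3.70 with the scanner software's ratio, past the rule in both. Lhx1 had 0.49 ± 0.73, a ratio that differed widely between arrays, and Foxa2 had 0.33 ± 0.10. No paralog of the 9 genes passed among 8 detected. The farthest were Sp4, which also neighbours Sp8, at -0.19 ± 0.20 and Sp6 at 0.08 ± 0.05, and the Gbx2 paralog Gbx1 had 0.01 ± 0.15. Greb1l and Sp9 were not analysed here.

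**Figure D4:**
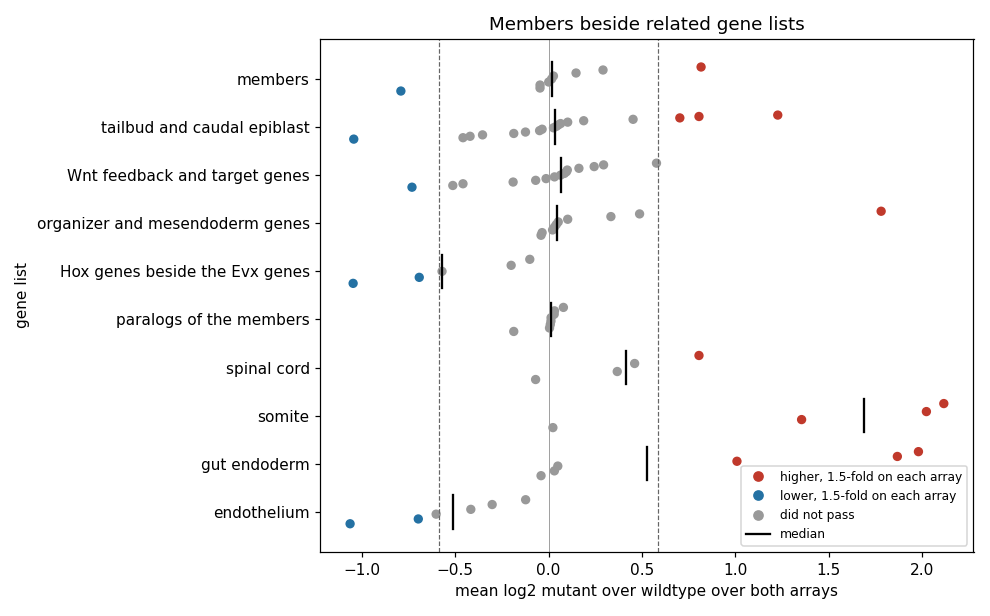
Mean log2 ratio of mutant over wildtype (horizontal axis) for each detected gene of 10 lists, 1 list per row, with red for genes higher and blue for genes lower by 1.5-fold on each array, grey for the others, and a black bar at the list median. The median of the 9 genes is 0.02, that of the Hox genes beside the Evx genes is -0.57 and that of the somite markers is 1.69.

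Markers of several tissues differed between the pools in which Gbx2 and Greb1 differed. Summed levels below are sums of normalized intensity over the detected markers of a list, on replicates 1 and 2. The 4 detected spinal cord markers summed to 1328 and 1315 in the mutant pool, against 900 and 940 in the wildtype pool. Sox2 rose among them, and Irx3 (0.46 ± 0.25), Sox1 (0.37 ± 0.47) and Pax6 (-0.07 ± 0.04) missed the rule. Irx3 and Sox2 were the brightest of the 4 and weigh most in the sums. Pax6 was dim, at 69.9 to 82.0 over both pools, so its ratio says little. Sox1 had 0.04 on replicate 1 and 0.70 on replicate 2. The 7 detected head neural markers summed to 999 and 891 in the mutant pool, against 982 and 871 in the wildtype pool, and none passed. Otx2 and En1, markers of the midbrain region, were not detected.

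Of 4 detected somite markers, Meox1, Tcf15 and Foxc2 rose, and Pax3 (0.02 ± 0.04) missed the rule. The list summed to 3918 and 3535 in the mutant pool, against 2413 and 2392 in the wildtype pool. Of 6 gut endoderm markers, Trh, Nepn and Spink1 rose, and Sox17 (-0.04 ± 0.42), Foxa1 (0.03 ± 0.08) and Cldn6 (0.05 ± 0.12) missed the rule. This list summed to 2121 and 1918 in the mutant pool, against 1334 and 1061 in the wildtype pool. Of 6 endothelial markers, Cldn5 and Sox18 fell, with sums of 2032 and 1853 in the mutant pool, against 3188 and 3114 in the wildtype pool. Sox18 no longer passed after median centring or without background subtraction. No marker of surface ectoderm (5 detected), allantois and lateral plate (5) or blood (3) passed, and their median ratios were 0.26, -0.12 and -0.11. The 7 streak and tailbud markers outside the 9 genes summed to 3888 and 3605 in the mutant pool, against 4451 and 3870 in the wildtype pool, with Fst higher and Cyp26a1 lower. Cyp26a1 alone had 599 and 625 in the mutant pool, against 1287 and 1235 in the wildtype pool, a wider gap than that of the sums. The list median was a log2 ratio of 0.06, with 3 markers above 0 and 3 below 0 on both arrays. The lower sum thus does not describe the list as a whole. The part of tissue composition in the Gbx2 and Greb1 values was not tested.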

How the data were processed

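Posterior tissue pools of 7 embryos per genotype were hybridised in a dye swap, per the labels. The deposited intensity values are mean spot and median local background brightness in Cy3 and Cy5, without correction or normalization, per the file headers. A deposited log10 ratio of Cy5 over Cy3 comes from spatial detrending and LOWESS in the scanner software, per the file headers, and was used as an alternative. Agilent Feature Extraction is given as 9.5.3 in the submitters' processing notes and as 7.5.1 in the file headers.

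Intensities were corrected with normexp (offset 50) and normalized by loess within each array, controls at weight 0, in limma 3.58.1 and R 4.3.3. Spots flagged as non-uniform were left out, 205 and 90 on the arrays. Ratios were turned to mutant over wildtype by the labelled dyes. The brightest detected probe stood for a gene. No spot of the 9 genes was saturated. An offset shrinks ratios of dim genes. The steps were tested on simulated data, with changes placed in bright spots only and larger than those of Gbx2 and Greb1. Recovery of smaller changes, or of changes in dim spots, was not tested.

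Names came from RefSeq accessions (GRCm38.p6) for 19435 probes, for 3620 from symbols and for 2908 from synonyms, while 14506 kept the name in the array files and 544 matching several genes were left out. Coordinates of probes are the files' own. Promoter sequences are RefSeq's, with 8 of the 9 genes matched. Named besides the 9 were list members past the rule and those with the largest ratios, flanking genes, and a few more after their values were seen: Wnt3a, Wnt8a, Axin2, Lef1, Gbx1, Hoxa13, Foxn4, the Olfr genes and the markers. Members and lists were chosen with earlier results of these data known. Alternatives covered background, normalization, probe, filter, threshold, naming and single arrays.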

Additional observations from a re-analysis of the deposited data

How the results depend on the processing

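No paired analysis was possible because there is 1 pool per genotype; each ratio is already a difference within an array. The number of the 9 genes past the rule was 2, Gbx2 and Greb1, and it was 0 with median centring and 0 at 2-fold on each array, while the other settings gave 2. The median of the 9 genes lay between 0.01 and 0.06 in the settings with both arrays, and was -0.06 on replicate 2 alone and 0.09 on replicate 1 alone. Counting only features matched to a RefSeq gene, chosen after seeing the data, kept both calls. Against 54 higher and 60 lower genes in all, median centring gave 27 and 16 and the scanner software's ratio gave 166 and 189, with counts of 139 and 194 at 1.3-fold and 20 and 7 at 2-fold. Lower genes numbered 91 with an offset of 16, 38 without background subtraction and 94 by the mean of both arrays. On single arrays, where dye effects remain, counts ran from 92 to 255 higher and from 124 to 375 lower. The cause of these changes was not tested. Stricter thresholds and filters admit fewer genes by construction. Signal over background limits Gsc and Mixl1. Gsc was not measured where detection in both genotypes was required.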

Other observations

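The brightness gap of Nkx1-2 between the arrays was looked at after its values were seen. Of the 26 genes at least 2.90-fold brighter on replicate 1, 5 were olfactory receptor genes such as Olfr615 and Olfr1, against 2.58% of detected genes. Foxn4, a transcription factor gene, had the widest gap at 4.99-fold, with log2 ratios of 0.09 and 0.06. Evx2 was 1.77-fold brighter on replicate 1, a gap reached by 1.46% of detected genes.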
